A study of Mus musculus with 2 samples.

Results

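The 10 genes described here, of 31053 in the deposited matrices, were Gzma, Gzmb, Gzmc, Gzmf, Gzmk, Prf1, Nkg7, Klrd1, Ctsw and Fasl. They were chosen by name as genes of the cytotoxic granule pathway. Their RNA was counted in single cells of tongue tumours from wild-type C57BL/6 mice that had been given 4NQO, a carcinogen that causes squamous tumours of the tongue and serves as a model of head and neck squamous cell carcinoma (HNSCC). After the tumours were induced, mice received either JQ1, an inhibitor of the BET bromodomain proteins that read acetylated histones, or control for 10 days, and both groups carried the 4NQO tumours. There was 1 library per treatment, how many mice stand behind each was not stated in the labels, and no value below has a replicate or carries a test. All intervals are 95% intervals that cover counting error only.

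Killer lymphocytes store perforin and granzymes in secretory granules. On contact with a target cell the granules are released, perforin (Prf1) opens the target's membrane, and the granzymes, a family of serine proteases, enter and cleave proteins inside it. The other members have other roles: Nkg7 is a granule membrane protein that takes part in granule release, Ctsw (cathepsin W) is a cysteine protease of cytotoxic lymphocytes, Klrd1 (CD94) is the surface partner of NKG2 receptors, and Fasl is the death ligand that binds Fas. In tumours these genes are known from CD8 T cells and natural killer cells, and some granzymes are also made by other T cells.

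The JQ1 library held 16233 barcodes and 99565417 unique molecular identifiers (UMIs, each 1 captured RNA molecule), and the control library 9754 barcodes and 118382532 UMIs. After filtering, 14044 JQ1 cells had a median of 3879 UMIs and 8150 control cells a median of 11302.5 UMIs. The libraries shared 40 barcodes. T cells were taken as cells with at least 1 UMI of Cd3d, Cd3e or Cd3g, the T cell receptor's signalling chains, and are called CD3-gated: 473 JQ1 cells (median 2785 UMIs) and 240 control cells (median 2204.5 UMIs). Of the shared barcodes, 0 of the JQ1 and 1 of the control cells were CD3-gated. A total of 389 JQ1 (82.2%) and 216 control CD3-gated cells (90%) lay in T-like clusters. The other 84 JQ1 cells and 24 control cells lay in clusters of other classes and were deeper, with medians of 7884 UMIs in JQ1 and 17305 UMIs in control, and each therefore adds more to the UMI total that levels are divided by.

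Gzmb, Gzmc and Gzmf lie in a cluster of granzyme genes where near copies sit side by side, which bears on how far a count can be tied to a gene. All lie on the minus strand of chromosome 14 (GRCm38, the mm10 build; GENCODE M21), Gzmf at chr14:56205263-56211417, Gzmc at chr14:56231441-56234656 and Gzmb at chr14:56258838-56262260, in a row with Gzmd, Gzme, Gzmg and Gzmn. Gzma (chr13:113093825-113100981) and Gzmk (chr13:113171608-113225908) are neighbours on chromosome 13. The others lie apart, Prf1 at chr10:61297833-61304680, Nkg7 at chr7:43437073-43438249, Klrd1 at chr6:129591782-129598775, Ctsw at chr19:5465043-5468507 and Fasl at chr1:161780689-161788495. The last 60 coding bases of the chromosome 14 copies are shown because these libraries read the 3′ side of a transcript. The sequences are from the GENCODE M21 transcripts, 5′ to 3′, ending in the stop codon, and capitals mark a base that differs from Gzmf at that position.
Gzmf: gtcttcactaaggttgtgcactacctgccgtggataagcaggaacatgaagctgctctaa
Gzme: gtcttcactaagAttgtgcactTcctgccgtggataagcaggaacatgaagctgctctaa
Gzmg: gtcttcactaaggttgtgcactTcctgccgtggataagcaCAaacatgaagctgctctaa
Gzmn: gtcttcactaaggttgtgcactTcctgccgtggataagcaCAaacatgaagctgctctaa
Gzmd: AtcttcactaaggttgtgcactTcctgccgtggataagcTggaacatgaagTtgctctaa
Gzmc: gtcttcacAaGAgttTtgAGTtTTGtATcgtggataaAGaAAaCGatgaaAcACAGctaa
Gzmb: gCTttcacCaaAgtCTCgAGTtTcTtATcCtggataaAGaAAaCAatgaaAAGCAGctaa
Gzme differed from Gzmf at 2 of these 60 bases, Gzmg and Gzmn at 3 each and Gzmd at 4, against 23 for Gzmc and 27 for Gzmb. Over the last 300 transcript bases, identity to Gzmf was 84.0% for Gzme, 85.0% for Gzmd, 86.2% for Gzmn and 87.9% for Gzmg, against 46.6% for Gzmc and 41.5% for Gzmb. Gzmb and Gzmc are thus well told apart from Gzmf by sequence, while the split of reads among Gzmf, Gzmd, Gzme, Gzmg and Gzmn is uncertain, since how reads that match several copies were handled was not stated in the labels.

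Over all CD3-gated cells the 10 genes together were slightly higher in the JQ1 library, and this sum hid opposite differences. Gzma and Gzmf, both proteases, were far higher in JQ1, but nearly all of their UMIs came from a handful of cells. Klrd1 and Ctsw were about 2.05-fold and 2.09-fold lower in JQ1, Nkg7 and Fasl were closer to a ratio of 1, Gzmb was 1.32-fold higher with an interval that only just left out 1, and the interval of Prf1 held 1. The number of cells carrying any of the 10 was 232 of 473 in JQ1 (49.0%) and 123 of 240 in control (51.2%).

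In counts per 1000000 UMIs of the gated cells (CPM), summed over cells, the 10 genes reached 719 CPM in JQ1 (1719 UMIs) and 607 CPM in control (609 UMIs), a ratio of JQ1 over control of 1.18 (1.08 to 1.30). Without the highest cell of each library the ratio was 1.11 (1.01 to 1.22). At least 10 UMIs of Gzma or of Gzmf were held by 10 JQ1 cells and 0 control cells. Leaving out these cells, which were chosen by the values compared and so could only lower the ratio, gave 0.711 (0.642 to 0.787). With ratios scaled so that the median gene was at 1, it was 1.08 (0.982 to 1.18). In clusters other than the T-like ones, CD3-gated cells held keratinocyte markers at a summed 11825 CPM in JQ1 and 34802 CPM in control and gland markers at 15913 CPM in JQ1 and 5323 CPM in control. In the T-like clusters alone the 10 genes had 1272 CPM in JQ1 and 1054 CPM in control, a ratio of 1.21 (1.10 to 1.33), close to the ratio over all gated cells.

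Of the 10 members, 8 had the 20 UMIs over both libraries that were required for a ratio to be counted, and 4 of them, Gzma, Gzmf, Prf1 and Fasl, reached that number in the JQ1 library alone. At a cut of 1.5-fold either way, 5 of these 8 members were past it, against 31% of all 9932 genes measured so. Gzma, Gzmf and Prf1 were the 3 higher in JQ1, where 23% of all genes were, but all of these 3 met the requirement through JQ1 alone and nothing is read from their count. The lower members were 2, Klrd1 and Ctsw, which reached 20 UMIs in both libraries, where 7.99% of all genes were lower. The median log2 ratio was 0.14 over the 8 members, with Gzmf at its lower bound, and 0.14 over all measured genes.

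**Figure D1:**
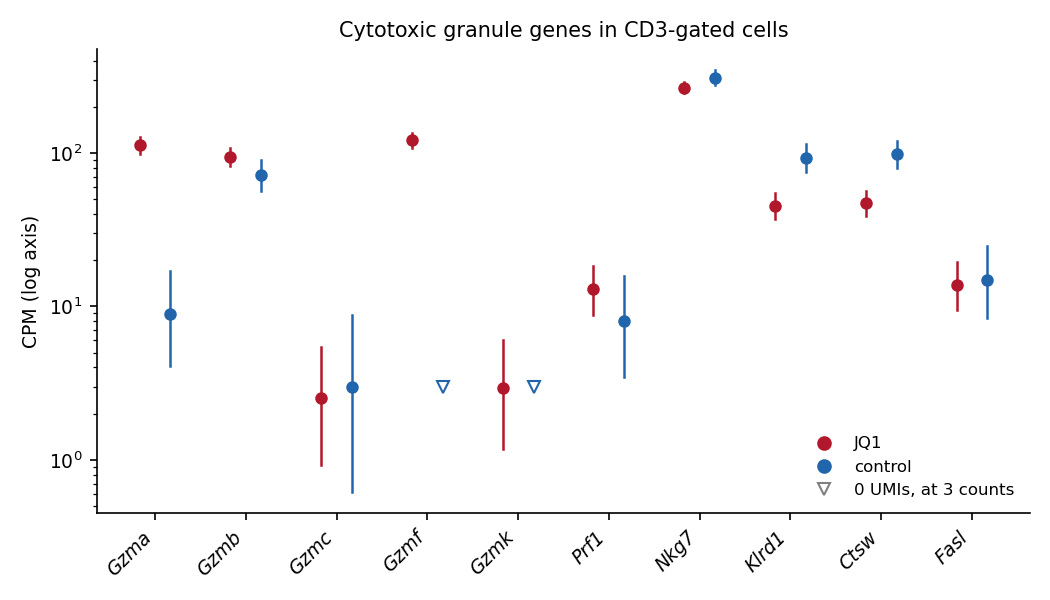
Level of each of the 10 genes in CD3-gated cells, in CPM on a log axis, with JQ1 (473 cells, red) left of control (240 cells, blue). Bars are exact 95% Poisson intervals, and open triangles stand at the value of 3 counts where a library had 0 UMIs. Gzma and Gzmf stand far higher in JQ1, Klrd1 and Ctsw lower.

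Gzma, a protease with trypsin-like specificity, had 268 UMIs in 16 of 473 JQ1 cells (112 CPM) and 9 UMIs in 4 of 240 control cells (8.98 CPM), a ratio of 12.5 (6.48 to 27.6). The shares of carrying cells, 3.38% in JQ1 and 1.67% in control, differed by 1.72 points with an interval from -1.13 to 4.00. The JQ1 excess therefore lay in UMIs per carrying cell and not, at this depth, in a detectable difference in carriers. The 5 highest JQ1 cells held 108, 59, 29, 17 and 13 UMIs, 84.3% of the total, while the highest control cell held 4. Without the highest cell of each library the ratio was 13.4 (5.63 to 41.9). Without the 10 JQ1 cells of at least 10 Gzma or Gzmf UMIs, which were chosen by this value, it was 0.855 (0.365 to 2.16).

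These Gzma-rich cells were of several kinds. The cell with 108 Gzma UMIs had 5 UMIs of Foxp3, the transcription factor of regulatory T cells, 6 of Il2ra, its interleukin-2 receptor chain, and 0 of Cd8a, Cd8b1, Prf1 and Nkg7. A cell with 29 and a cell with 12 Gzma UMIs were of the interleukin-17 kind, the first with 9 UMIs of Il17a and 25 of Trdc, the constant region of the delta T cell receptor chain, and the other with 101 of Il17a and 31 of Trdc. The cell with 59 Gzma UMIs was a CD8 cell that also held 67 of Gzmf and 12 of Gzmb. By gate, the 268 JQ1 UMIs lay to 120 in 3 Foxp3 cells, 73 in 3 CD8 cells, 44 in 3 Il17a cells, 30 in 6 cells with none of these genes and 1 in 1 cell of several gates. In control, 8 of the 9 UMIs lay in 3 CD8 cells.

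Gzmf, a granzyme of the rodent granzyme B cluster, had 289 UMIs in 5 JQ1 cells (121 CPM) and 0 UMIs in 240 control cells, which by the limit of 3 counts allows up to 1.25% of control cells to hold a UMI and sets no limit on cells expressing the gene. Against 3 counts in control it was at least 40.4-fold higher in JQ1. The 5 cells held 114, 67, 65, 29 and 14 UMIs, and every carrier thus held many. Of these, 4 were CD8-gated with 260 UMIs together, and the fifth had no UMI of Cd8a, Cd8b1, Foxp3 or Il17a. Without the highest cell the bound was at least 24.5-fold.

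All 5 Gzmf carriers also carried Gzmb and Nkg7, 3 carried Gzma, 3 carried Klrd1 and 1 carried Prf1. The near copies were found in the same cells: the cell with 67 Gzmf UMIs had 47 of Gzmd and 19 of Gzme, the cell with 65 had 9 and 11, and the cell with 114 had 2 and 4. Over all CD3-gated cells, Gzmd had 72 UMIs in 5 JQ1 cells and 10 UMIs in 1 control cell, a ratio of 3.02 (1.55 to 6.57), and Gzme had 36 UMIs in 4 JQ1 cells and 19 UMIs in 1 control cell, a ratio of 0.795 (0.444 to 1.47). The control UMIs of Gzmd and Gzme lay in the same cell, which was CD8-gated and had no Gzmf UMI. Gzmg and Gzmn had 0 UMIs in both libraries.

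The promoters of Gzmf and Gzmb are shown because the 5 Gzmf carriers all carried Gzmb, while only 5 of the 53 JQ1 Gzmb carriers carried Gzmf. They are the 250 bases before the gene start in RefSeq (GRCm38.p6), written 5′ to 3′ on the minus strand of chromosome 14, Gzmf from chr14:56211408-56211657 and Gzmb from chr14:56262335-56262584. Capitals mark matches on either strand to TGTGGT (the Runx motif), TGANTCA (AP-1) and TGACGTCA (CRE). The T-box motif GGTGTGA was also searched.
Gzmf: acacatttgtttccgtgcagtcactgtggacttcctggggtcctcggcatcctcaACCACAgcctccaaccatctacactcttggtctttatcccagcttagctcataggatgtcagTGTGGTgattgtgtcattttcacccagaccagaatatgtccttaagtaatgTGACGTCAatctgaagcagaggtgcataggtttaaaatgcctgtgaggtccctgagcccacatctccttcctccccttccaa
Gzmb: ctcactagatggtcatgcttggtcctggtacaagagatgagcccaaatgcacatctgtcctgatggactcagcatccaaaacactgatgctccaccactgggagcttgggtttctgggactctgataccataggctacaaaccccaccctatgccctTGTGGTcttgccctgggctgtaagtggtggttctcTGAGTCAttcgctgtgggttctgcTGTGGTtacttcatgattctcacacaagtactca
Both held 2 Runx matches, Gzmb also 1 AP-1 match and Gzmf also 1 CRE match, and neither held the T-box letters. Over 32851 RefSeq promoters of this length, 14.0% held the Runx letters, 6.75% AP-1, 1.55% CRE and 3.33% the T-box letters. The sequences were 43.4% identical when aligned. Matches describe the letters only. Of the 10 members, 8 had a promoter entry.

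Gzmb, the protease that cleaves after aspartate and can start the caspase cascade, had 226 UMIs in 53 of 473 JQ1 cells (94.5 CPM) and 72 UMIs in 32 of 240 control cells (71.8 CPM), a ratio of 1.32 (1.01 to 1.74). The interval held 1 in 4 of the 9 alternatives that gave one (a stricter cell filter, the highest cell of each library left out, the median gene at 1, and the cells of at least 10 Gzma or Gzmf UMIs left out), and was 0.978 to 1.69 around 1.28 with the stricter cell filter. JQ1 had 5 cells with at least 10 UMIs, the highest with 35, and control had 0 such cells, the highest with 9. Carriers were 11.2% of JQ1 and 13.3% of control cells. The highest JQ1 cell was Foxp3-gated, with 2 Foxp3 and 2 Cd4 UMIs.

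Gzmc and Gzmk were too rare for a ratio. Gzmc, another granzyme of the chromosome 14 cluster, had 6 UMIs in 5 JQ1 cells and 3 UMIs in 3 control cells. Gzmk, a trypsin-like protease next to Gzma, had 7 UMIs in 5 JQ1 cells and 0 UMIs in control. Of the 5 JQ1 Gzmk carriers, 4 were CD8-gated.

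Prf1 had 31 UMIs in 21 JQ1 cells (13.0 CPM) and 8 UMIs in 7 control cells (7.98 CPM), a ratio of 1.62 (0.731 to 4.09) whose interval held 1. The highest JQ1 cell held 9 UMIs, and most carriers held 1, in 18 JQ1 and 6 control cells. Cells with any of the 5 granzymes numbered 63 in JQ1 and 37 in control, and Prf1 was also found in 9 of these JQ1 cells and 2 of these control cells. The granzymes had 796 UMIs in JQ1 and 84 in control, and the other 5 members 923 in JQ1 and 525 in control.

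Nkg7 was the member with the most carriers, 144 JQ1 cells (30.4%) and 80 control cells (33.3%). It had 638 UMIs in JQ1 (267 CPM) and 310 UMIs in control (309 CPM), a ratio of 0.863 (0.753 to 0.992). Its UMIs were spread over cells in both libraries: the highest cells held 34, 31, 22, 22 and 20 UMIs in JQ1 and 19, 17, 16, 13 and 12 in control.

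Klrd1 had 108 UMIs in 54 JQ1 cells (45.2 CPM) and 93 UMIs in 31 control cells (92.7 CPM), a ratio of 0.487 (0.366 to 0.650). Ctsw had 113 UMIs in 82 JQ1 cells (47.3 CPM) and 99 UMIs in 55 control cells (98.7 CPM), a ratio of 0.479 (0.362 to 0.634). For these genes no cell stood apart: the highest cell held 8 Klrd1 UMIs in JQ1 and 10 in control, and 4 Ctsw UMIs in JQ1 and 8 in control. Both kept a ratio under 1 over the 10 alternatives tried, from 0.404 to 0.578 for Klrd1 and from 0.436 to 0.561 for Ctsw. In the same cells the 8 markers of T cells in general had a median log2 ratio of -0.43, and Cd8a and Cd8b1 one of -0.94, and the part of this in the result was not tested. In the T-like clusters alone the ratios were 0.452 (0.335 to 0.609) for Klrd1 and 0.468 (0.352 to 0.623) for Ctsw.

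Fasl had 33 UMIs in 28 JQ1 cells (13.8 CPM) and 15 UMIs in 14 control cells (15 CPM), a ratio of 0.923 (0.487 to 1.83). Most carriers held 1 UMI, 24 in JQ1 and 13 in control. An interval this wide allows a difference of nearly 2-fold either way.

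**Figure D2:**
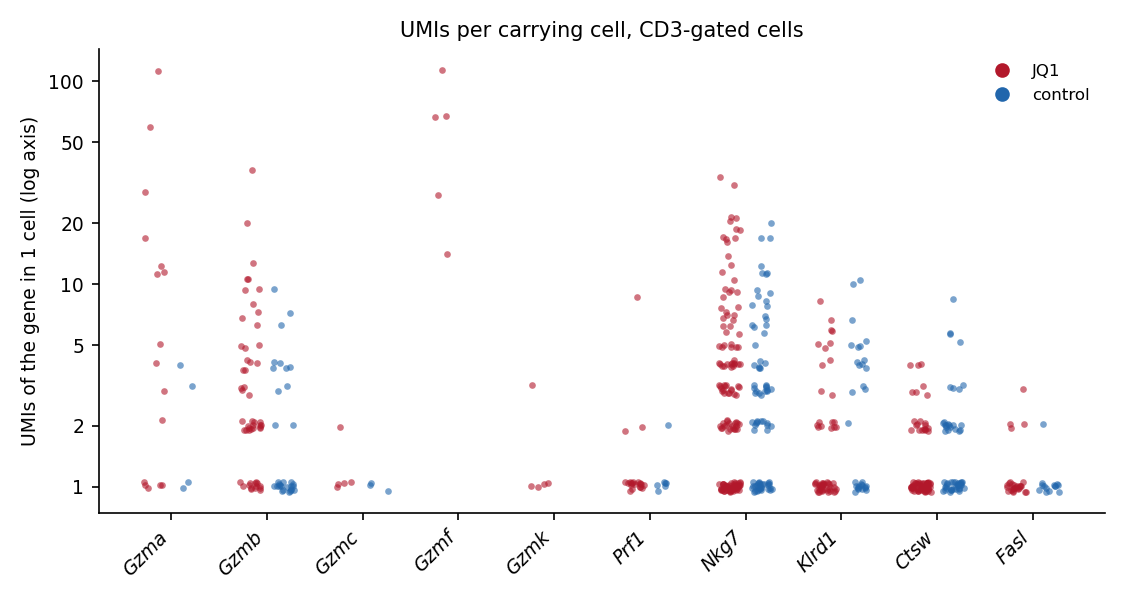
UMIs of each gene in each CD3-gated cell that carried it, on a log axis, with JQ1 cells (red) left of control cells (blue). Points are shifted slightly so that they can be told apart. The 5 JQ1 cells with 14 to 114 Gzmf UMIs have no counterpart in control, and 7 JQ1 cells hold at least 10 Gzma UMIs, while Ctsw and Fasl sit at 1 to 8 UMIs in both libraries.

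To compare how many cells carried each gene at equal depth, every CD3-gated cell was thinned to 1000 UMIs, which left out 18 JQ1 and 23 control cells with fewer. In JQ1, 139 of 455 cells (30.5%, 26.3 to 35.0) and in control, 83 of 217 cells (38.2%, 31.8 to 45.1) then carried any of the 10, a difference of -7.70 points (-15.5 to -0.101). The mean over all possible draws was 31.8% in JQ1 and 38.3% in control, a difference of -6.50 points. The interval held 0 in 6 of the 9 alternatives that gave one, with cells of T-like clusters alone among them. Without thinning the difference was -2.20 points (-9.89 to 5.53). Since the share was lower in JQ1 while the summed level was higher, no order of the libraries is read from it.

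By gene, Ctsw was found in 27 of the thinned JQ1 cells (5.93%) and 32 of the thinned control cells (14.7%), a difference of -8.81 points (-14.4 to -3.98), and its CPM was lower in JQ1 too. The mean over all draws gave -4.96 points. Nkg7 was found in 91 JQ1 cells (20%) and 61 control cells (28.1%), -8.11 points (-15.3 to -1.31), and the mean over all draws gave -5.01. Gzmb was found in 32 JQ1 cells (7.03%) and 10 control cells (4.61%) in this draw, but the mean over all draws was -0.04 points. For the members other than Ctsw and Nkg7 the interval held 0. For Nkg7 it also held 0 with at least 2 CD3 UMIs (-13.3 to 2.56), without thinning (-10.2 to 4.21) and at 500 UMIs (-10.7 to 0.524). For Ctsw it held 0 without thinning (-12.1 to 0.515).

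At the same depth, 4 of 2196 JQ1 fibroblast-like cells (0.182%) and 0 of 445 control fibroblast-like cells carried any of the 10, and 1 of 1786 JQ1 endothelial-like cells (0.0560%) and 0 of 410 control endothelial-like cells did. Median depths before thinning were 4062 UMIs in JQ1 and 3192 UMIs in control fibroblast-like cells, above those of the CD3-gated cells. The share of T cells with any member stood far above this background of free RNA.

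Cells with several members were somewhat less frequent in JQ1. At least 3 of the 10 genes were found in 40 of 473 JQ1 cells (8.46%) and 32 of 240 control cells (13.3%), a difference of -4.88 points (-10.2 to -0.181), and none in 241 JQ1 cells (51.0%) and 117 control cells (48.8%), at the depths given above. Of the cells with at least 3, Cd8a or Cd8b1 was found in 17 of 40 in JQ1 (42.5%) and 19 of 32 in control (59.4%). Among cells with none of the 10, 3 of 241 in JQ1 and 0 of 117 in control had such a UMI. Ifng, the gene of interferon gamma, was found in 15 of the 40 JQ1 cells with at least 3 members (37.5%) and in 14 of 32 control cells (43.8%), against 12 of 241 JQ1 cells (4.98%) and 12 of 117 control cells (10.3%) with none. Trdc ran the other way, in 1 of the 40 JQ1 cells and 0 of the 32 control cells with at least 3 members, against 70 of 241 JQ1 cells (29.0%) and 31 of 117 control cells (26.5%) with none. Cells with at least 3 members were deeper, with median depths of 3824 UMIs in JQ1 and 3012 UMIs in control, against 2806 UMIs in JQ1 and 2042 UMIs in control cells with none.

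Klrd1 carriers differed in what else they carried. Ctsw was found in 18 of the 54 JQ1 Klrd1 carriers (33.3%) and in 24 of the 31 control Klrd1 carriers (77.4%), a difference of -44.1 points (-59.8 to -22.3). Nkg7 was found in 37 of these JQ1 carriers (68.5%) and 27 of these control carriers (87.1%), -18.6 points (-33.9 to 0.685). Gzmb was found in 7 JQ1 Klrd1 carriers (13.0% of 54) and 1 control Klrd1 carrier (3.23% of 31).

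The CD3-gated cells were next split by what else they carried. Cells with a UMI of Cd8a or Cd8b1, the CD8 chains, numbered 39 in JQ1 and 22 in control, cells with Foxp3 59 in JQ1 and 22 in control, and cells with Il17a, the cytokine of type 17 T cells, 90 in JQ1 and 59 in control. Another 3 JQ1 cells and 6 control cells passed several of these gates, and 282 JQ1 and 131 control cells passed none. A missing UMI does not show that a cell lacked the RNA.

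The summed level of the 10 genes followed the same order of gates in both libraries. It was 2806 CPM (2602 to 3021) in JQ1 and 2481 CPM (2155 to 2842) in control CD8 cells, 940 CPM (834 to 1057) in JQ1 and 597 CPM (400 to 858) in control Foxp3 cells, 447 CPM (412 to 483) in JQ1 and 404 CPM (353 to 461) in control cells of no gate, and 227 CPM (183 to 278) in JQ1 and 214 CPM (164 to 274) in control Il17a cells. In JQ1 these intervals were apart from each other, but they do not cover the spread between cells. Of the 282 UMIs of the JQ1 Foxp3 cells, 112 (39.7%) lay in 1 cell and 194 (68.8%) in 5 cells. The place of this gate in the JQ1 order thus rests on few cells. In control those of the Foxp3 cells and of the cells of no gate overlapped, and the others were apart.

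CD8 cells carried some member nearly without exception, 36 of 39 in JQ1 and 22 of 22 in control. Over all CD8-gated cells the summed ratio was 1.13 (0.967 to 1.33), but these cells also held markers of other classes. Keratinocyte markers summed to 2366 CPM in JQ1 and 27898 CPM in control CD8-gated cells. Gland markers went the other way, at 2850 CPM in JQ1 and 59.6 CPM in control. Of the UMIs of CD8-gated cells, 121540 of 250213 in JQ1 and 57631 of 83840 in control lay in T-like clusters. The levels of cells in T-like clusters are therefore given as well. There the 10 genes had 5570 CPM in 34 JQ1 cells and 3574 CPM in 21 control cells, a ratio of 1.56 (1.33 to 1.83), with keratinocyte markers at 222 CPM in JQ1 and 798 CPM in control. Of the 6 members measured in all CD8-gated cells 6 were past 1.5-fold, against 45.9% of 2282 genes. Gzma, Gzmb and Gzmf had the required UMIs through JQ1 alone, where they were high, so this count is partly set by the requirement. Over all CD8-gated cells the summed ratio was 0.915 (0.774 to 1.09) without the highest cell of each library, and 0.420 (0.347 to 0.509) without the JQ1 cells chosen for at least 10 Gzma or Gzmf UMIs.

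Within the CD8-gated cells of T-like clusters, Gzma, Gzmb and Gzmf were higher in JQ1, and Ctsw and Klrd1 were lower. Gzmb had 39 UMIs in 6 JQ1 cells (321 CPM) and 2 UMIs in 2 control cells (34.7 CPM), a ratio of 9.25 (2.39 to 79.0), and 31 of the JQ1 UMIs lay in 2 cells that also held Gzmf. Gzma had 73 UMIs in 3 JQ1 cells and 8 UMIs in 3 control cells, a ratio of 4.33 (2.08 to 10.4). Gzmf was at least 41.1-fold higher in JQ1. Prf1 had 14 UMIs in 5 JQ1 cells and 2 UMIs in 1 control cell, a ratio of 3.32 (0.762 to 30.1) whose interval held 1.

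Ctsw was lower in these JQ1 cells, with 26 UMIs in 17 of 34 JQ1 cells (214 CPM) and 37 UMIs in 17 of 21 control cells (642 CPM), a ratio of 0.333 (0.194 to 0.565). Klrd1 was lower as well, with 39 UMIs in 15 JQ1 cells and 36 UMIs in 13 control cells, a ratio of 0.514 (0.318 to 0.832). Nkg7 was found in 28 of 34 JQ1 and 20 of 21 control cells, at a ratio of 0.870 (0.690 to 1.10). Thinned to 1000 UMIs, Ctsw remained in 3 of 37 JQ1 CD8-gated cells (8.11%) and 10 of 21 control CD8-gated cells (47.6%), and the mean over all draws was 15.4% in JQ1 and 44.95% in control.

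Foxp3-gated cells held the most Gzmb carriers of any gate in JQ1. Gzmb had 90 UMIs in 20 of 59 JQ1 cells (300.1 CPM) and 13 UMIs in 6 of 22 control cells (268 CPM). The ratio was 1.12 (0.623 to 2.19), with an interval that held 1. The deepest JQ1 cell of this gate had 79608 of its 299929 UMIs, and the deepest control cell had 4267 of 48546. Such a cell adds much to the UMI total that levels are divided by, and no ratio without it is given here. Gzma had 120 UMIs in 3 JQ1 cells and 0 in control, at least 6.47-fold higher, with 108 of the UMIs in 1 cell. Klrd1, Fasl, Gzmf and Gzmk had 0 UMIs in Foxp3-gated cells of both libraries, which by the same limit of 3 counts allows up to 5.08% of these JQ1 cells and 13.6% of these control cells to hold a UMI. Of the 3 members measured in this gate, all through the JQ1 UMIs alone, 1 was past 1.5-fold, against 48.3% of 2312 genes, and it was Gzma, so nothing is read from this count. Foxp3 cells held 39.8% of all JQ1 Gzmb UMIs, 12.5% of JQ1 CD3-gated cells being in the gate.

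In Il17a-gated cells Gzmb was lower in JQ1, with 23 UMIs in 8 of 90 JQ1 cells (56.7 CPM) and 34 UMIs in 11 of 59 control cells (117 CPM), a ratio of 0.484 (0.272 to 0.845), and 0.293 (0.151 to 0.546) in T-like clusters alone. In control this gate held the most Gzmb UMIs of any gate. Ctsw was lower too, with 13 UMIs in 10 JQ1 cells and 21 UMIs in 11 control cells, a ratio of 0.443 (0.204 to 0.926). Gzma had 44 UMIs in 3 JQ1 cells and 0 in control, at least 10.5-fold higher. The 3 members measured in this gate, Gzma, Gzmb and Ctsw, were all past 1.5-fold, against 37.9% of 4308 genes, but Gzma had the required UMIs through JQ1 alone and Ctsw through control alone, each where it was higher. Most cells of this gate carried Trdc, 77 of 90 in JQ1 and 41 of 59 in control, and Nkg7, the member with the most carriers over all CD3-gated cells, was found in only 3 JQ1 and 3 control cells.

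The cells of no gate held most Nkg7 carriers, 96 of 282 in JQ1 (34.0%) and 47 of 131 in control (35.9%), at a ratio of 1.06 (0.864 to 1.31). Klrd1 was again lower, with 60 UMIs in 33 JQ1 cells and 44 UMIs in 14 control cells, a ratio of 0.538 (0.359 to 0.813). Ctsw had a ratio of 0.895 (0.556 to 1.48) here. Thinned, it was found in 5.90% of these JQ1 cells and 13.4% of these control cells, a difference of -7.49 points (-15.3 to -1.32), while the mean over all draws gave -1.79 points. Whether its ratio differed between gates was not tested. Cd4 was found in 72 of these JQ1 cells and 32 of these control cells, and Trdc in 21 JQ1 and 9 control cells. Of the 7 members measured in these cells 4 were past 1.5-fold, against 35.6% of 8470 genes, and 3 of the 4, Gzma, Gzmb and Gzmf, had the required UMIs through JQ1 alone. The few cells of several gates held 16 UMIs of the 10 genes in 3 JQ1 cells and 86 UMIs in 6 control cells.

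**Figure D3:**
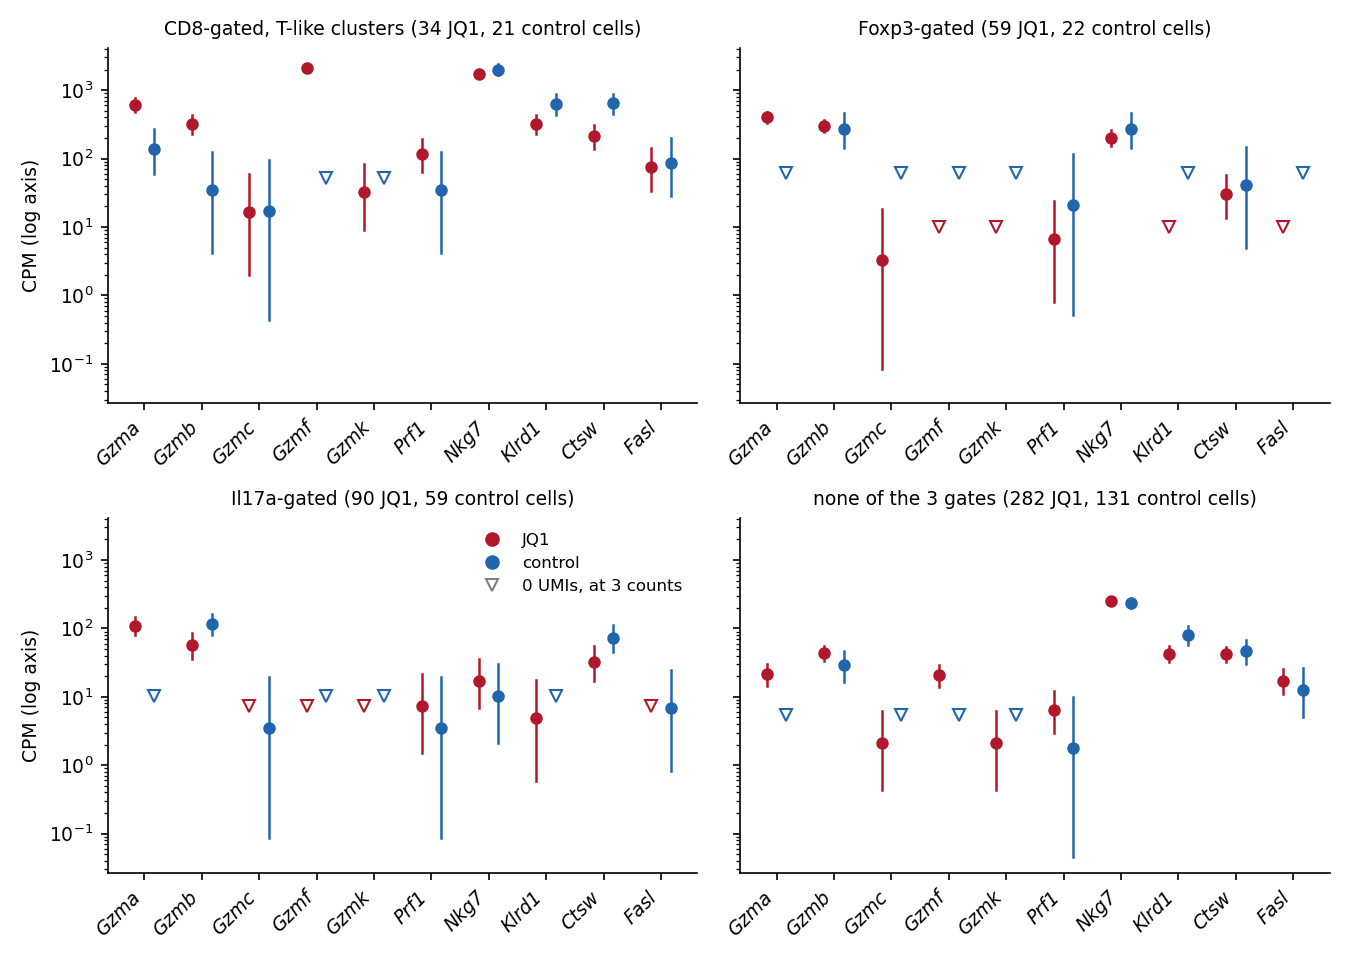
Level of each gene in 4 sets of CD3-gated cells, in CPM on a log axis, JQ1 (red) left of control (blue), with exact 95% Poisson intervals. Open triangles stand at 3 counts where a library had 0 UMIs. Gzmb is higher in JQ1 among CD8-gated cells, close among Foxp3-gated cells and lower among Il17a-gated cells.

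Genes that act with the members were read from lists by role, 81 genes in all, of which 63 were measured in CD3-gated cells. Past 1.5-fold, 15 were higher and 5 were lower in JQ1, against 2287 higher and 794 lower of the 9932 measured genes. The median log2 ratio of the 63 genes was 0.11, against 0.14 over all genes. At least Gzmd, Unc13d, Serpinb9 and Klrc2 of the higher genes had the required UMIs through JQ1 alone, where they were high. The counts of higher genes, here and by list, are therefore partly set by the requirement. Of the UMIs of CD3-gated cells, 46.2% in JQ1 and 44.0% in control lay outside the T-like clusters. Ratios in the T-like clusters are therefore given as well for some of these genes. In all CD3-gated cells gland markers summed to 7881 CPM in JQ1 and 2381 CPM in control and neutrophil markers to 3701 CPM in JQ1 and 2163 CPM in control. In T-like clusters gland markers summed to 974 CPM in JQ1 and 73.0 CPM in control and neutrophil markers to 202 CPM in JQ1 and 463 CPM in control. Of the machinery that builds and moves granules, 1 of 11 genes of granule matrix, protease activation and sorting was past 1.5-fold over all CD3-gated cells. So was 1 of 9 measured genes of transport and release, where 31% of all genes were. Calr, the calcium-binding chaperone found with perforin in granules, had 415 CPM in JQ1 and 226 CPM in control, a ratio of 1.83 (1.58 to 2.12), and 1.69 (1.38 to 2.08) in T-like clusters. Unc13d, which primes granules for fusion, had 31 UMIs in JQ1 and 7 in control, a ratio of 1.86 (0.803 to 5.0) whose interval held 1. In T-like clusters its ratio was 1.37, under the cut. There Stxbp2 (1.70) and Snap23 (0.656) of the transport and release list were past it, against 1.22 and 0.906 over all gated cells. Srgn, the proteoglycan core that holds granzymes in the granule, had a ratio of 0.923 (0.873 to 0.976), and Ctsc, which activates granzymes, one of 0.747 (0.593 to 0.943). Smaller differences with intervals off 1 were also found for Coro1a, an actin regulator, at 0.792 (0.703 to 0.894), for Vamp8, a fusion protein of granules, at 0.769 (0.644 to 0.922), and for Stx11, another fusion protein, at 1.27 (1.04 to 1.56). Ctsd, of the matrix and sorting list, had 1.23 (1.05 to 1.45) over all gated cells but 0.955 in T-like clusters.

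Among granzyme inhibitors 2 of 4 measured genes were past 1.5-fold, both higher in JQ1, where 23% of all genes were. Of these 2, Serpinb9 had the required UMIs through JQ1 alone, where it was high, so this count is partly set by the requirement. Serpinb9, which blocks granzyme B inside the cells that make it, had 72 UMIs in 36 JQ1 cells (30.1 CPM) and 8 UMIs in 7 control cells (7.98 CPM), a ratio of 3.78 (1.82 to 9.08), and 3.01 (1.42 to 7.31) in T-like clusters. Serpinb6b had 33.5 CPM in JQ1 and 21.9 CPM in control, a ratio of 1.53 (0.942 to 2.57) whose interval held 1. Fas, the receptor of Fasl, had a ratio of 1.03 (0.747 to 1.43).

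Over all CD3-gated cells, transcription factors of killer cells were mostly level. Tbx21 (T-bet), a driver of granzyme and perforin expression, had 25.9 CPM in JQ1 and 25.9 CPM in control, a ratio of 1.0 (0.623 to 1.65), and Runx3 had a ratio of 0.911 (0.760 to 1.10). Of 8 measured factors only Tox, known from exhausted T cells, was past 1.5-fold over these cells, where 31% of all genes were. It had 46.9 CPM in JQ1 and 25.9 CPM in control, a ratio of 1.81 (1.17 to 2.89), and 1.87 in T-like clusters. In T-like clusters Prdm1 was past the cut too, at 1.62, against 1.26 (0.917 to 1.75) over all gated cells. Eomes was not measured, with 13 UMIs in JQ1 and 1 in control.

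Of 6 cytokines of killer cells 1 was higher and 2 were lower past 1.5-fold, where 23% of all genes were higher and 7.99% lower. Ccl3, a chemokine that neutrophils also make, had 141 CPM in JQ1 and 85.8 CPM in control, a ratio of 1.64 (1.29 to 2.10), but one of 1.18 (0.880 to 1.61) in T-like clusters, where neutrophil markers were lower in JQ1. Tnf had 61.9 CPM in JQ1 and 103 CPM in control, a ratio of 0.603 (0.466 to 0.783) and of 0.515 (0.381 to 0.697) in T-like clusters, and Xcl1, the chemokine that draws cross-presenting dendritic cells, 40.6 CPM in JQ1 and 82.8 CPM in control, a ratio of 0.490 (0.362 to 0.665) and of 0.501 (0.369 to 0.682) in T-like clusters. Ifng had a ratio of 1.14 (0.933 to 1.40). For Ccl4, not past the cut, it was 1.46 (1.23 to 1.74) over all gated cells but 0.743 in T-like clusters.

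Of 9 measured receptor genes 4 were higher and 2 lower, where 23% of all genes were higher and 7.99% lower, and 2 of the 4 were Fcer1g and Tyrobp, adaptor genes that myeloid cells also express. The NKG2 partners of Klrd1 were higher in JQ1, against the direction of Klrd1 itself: Klrc1 had 54.4 CPM in JQ1 and 31.9 CPM in control, a ratio of 1.70 (1.15 to 2.59), and Klrc2 37.6 CPM in JQ1 and 14.0 CPM in control, a ratio of 2.70 (1.53 to 5.13). In T-like clusters these ratios were 1.69 (1.14 to 2.58) for Klrc1 and 2.53 (1.42 to 4.83) for Klrc2. Fcer1g had a ratio of 1.74 (1.19 to 2.61) over all gated cells, but 0.715 (0.320 to 1.68) in T-like clusters, and Tyrobp 2.02 (1.31 to 3.21) over all gated cells, but 0.812 (0.301 to 2.40) in T-like clusters. Cd160 had a ratio of 0.265 (0.117 to 0.575) and Cd226 one of 0.575 (0.364 to 0.916). Upstream, Il2ra had 194 CPM in JQ1 and 82.8 CPM in control, a ratio of 2.35 (1.85 to 3.0), and Il18r1 78.6 CPM in JQ1 and 136 CPM in control, a ratio of 0.580 (0.463 to 0.728).

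**Figure D4:**
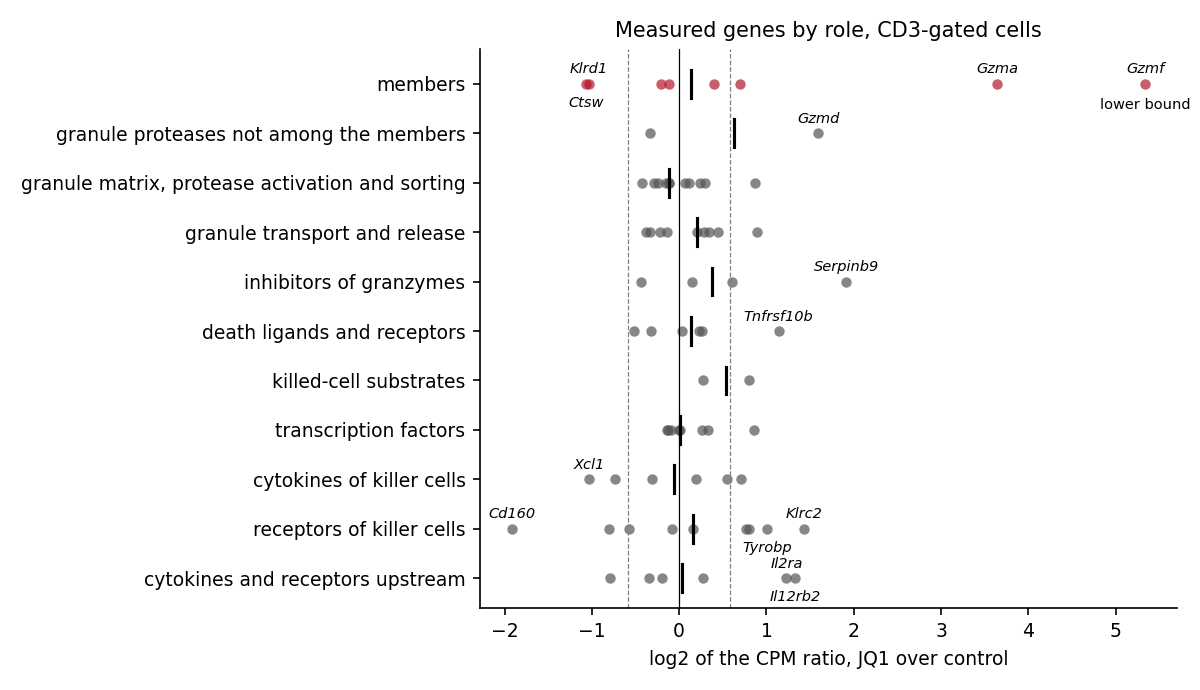
The log2 ratio of CPM, JQ1 over control, of each measured gene in CD3-gated cells, with the members on top and the lists by role below. Black ticks mark the median of a list, dashed lines 1.5-fold, and the value of Gzmf is a lower bound. The medians of most lists lie near 0, and Gzma and Gzmf lie furthest to the right.

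Few cells carried markers of natural killer cells, the other killer lymphocytes. Ncr1 and Klrb1c, which define them, had 0 UMIs in the CD3-gated cells of both libraries, as did Klra8 and Klra4. A gate on CD3 is not meant to hold natural killer cells, so these counts of 0 do not show how many there were. Cells with a UMI of Ncr1, Klrb1c or Klre1 and none of CD3 numbered 25 in JQ1 and 11 in control, and 5 of them in JQ1 and 4 in control carried a member, with 34 UMIs in JQ1 and 29 UMIs in control. The T-like clusters also held 114 JQ1 and 61 control cells with no CD3 UMI, with 98 member UMIs in JQ1 and 56 in control, among them Ctsw at 61.2 CPM in JQ1 and 179 CPM in control, a ratio of 0.342 (0.156 to 0.737). CD3-gated and T-like cells together held 86.0% of all member UMIs in JQ1 and 87.3% in control. All members but Gzmc and Fasl were among the genes used for clustering, so that T-like cells are described, not tested, by them.

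Outside the T cells, Klrd1 and Nkg7 each had a place of their own. Klrd1 was found in 34 of 333 JQ1 (10.2%) and 29 of 179 control macrophage or monocyte-like cells (16.2%), with 78 UMIs in JQ1 (46.8 CPM) and 69 UMIs in control (86.5 CPM), a ratio of 0.541 (0.386 to 0.759). Of these cells, those with a UMI of a dendritic cell marker carried Klrd1 in 30 of 181 in JQ1 (16.6%) and 27 of 80 in control (33.8%), and those with none in 4 of 152 in JQ1 (2.63%) and 2 of 99 in control (2.02%). The other 9 members together had 2 UMIs in JQ1 and 0 in control in this class. CD3-gated cells therefore held only 51.7% of all Klrd1 UMIs in JQ1 and 51.7% in control.

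Nkg7 was found in 22 of 156 JQ1 cells (14.1%) of a neutrophil-like cluster led by Ngp, Camp and Elane, granule genes of immature neutrophils, with 120 UMIs (125 CPM). Only 6 control cells lay in that cluster, with 0 Nkg7 UMIs, and the other neutrophil-like cluster had 0 Nkg7 UMIs in 528 JQ1 and 544 control cells. Of the other members, Gzma and Fasl had 1 UMI each and Prf1 had 2 in the JQ1 cells of the cluster, and the rest had 0. The cluster was raised in 10 neutrophil markers, but it is nearly all from 1 library. Nkg7 in it can therefore not be compared between the libraries.

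**Figure D5:**
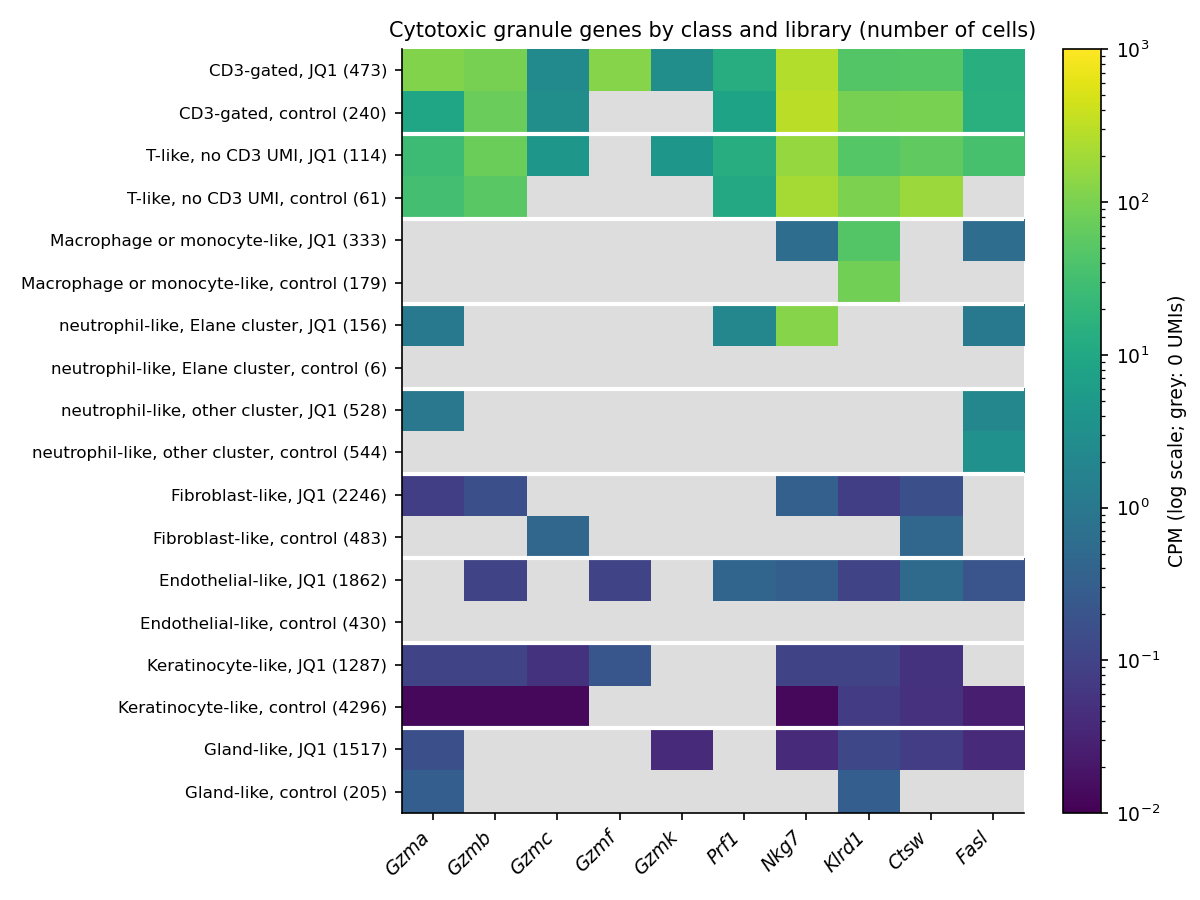
Level of each gene by class and library in CPM (colour, log scale), JQ1 above control in each pair, with the number of cells in brackets, and grey for 0 UMIs. All classes but the CD3-gated cells hold no CD3 UMI. Klrd1 stands out in macrophage or monocyte-like cells of both libraries, and Nkg7 in the Elane cluster of JQ1.

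Across the 30 clusters of both libraries, the genes whose CPM was most like the sum of the 10 were Rasal3 (Pearson r = 0.954), Myo1g (r = 0.938) and Cst7 (r = 0.928), the last being cystatin F, an inhibitor of granule proteases. For Gzma it was Klrc1 (r = 0.983), for Gzmb Klrc2 (r = 0.965), for Klrd1 Ccl5 (r = 0.934) and then Ccr7 (r = 0.928), and for Fasl Cd6 (r = 0.918) and Ifng (r = 0.909). Only 2 of the clusters were T-like, the clusters share both libraries and were built from most of these genes, and the values are a description.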

How the data were processed

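The authors deposited raw UMI counts per gene and barcode, 1 matrix per library, made with Cell Ranger 3.1.0 on mm10 per the submitters' processing notes, which also name Seurat 4.0.0 and state no filter on barcodes. A barcode stayed in with 200 or more genes and a mitochondrial share below 20%, which 1056 JQ1 (6.51%) and 1481 control barcodes (15.2%) reached or passed, and Scrublet (scanpy 1.11.5) removed 424 JQ1 and 119 control barcodes as doublets. Both libraries were clustered together (2000 variable genes, 30 components, 15 neighbours, Leiden resolution 1.0, leidenalg 0.10.2) and named by markers as in an earlier account of the series. UMIs were summed per gate and library and divided by all UMIs of those cells. Ratios are JQ1 over control with exact conditional intervals, levels have exact Poisson, shares Clopper-Pearson and differences Newcombe intervals, and 0 UMIs in a library were set to 3 counts per library for a bound. PCR and capture mean that intervals cover counting error only. With 1 library per group no test was made. The members and lists were chosen with earlier results of these data known. The 10 members were always named, and other genes came from lists by role. Ratios were tested on simulated counts. Alternatives changed the cell filter, doublets, gate, depth, scaling and single cells. Other tools were biopython 1.88, igraph 0.11.9, matplotlib 3.10.9, scipy 1.17.1, numpy 2.4.6, pandas 2.3.3, scikit-learn 1.9.0 and Python 3.11.15.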

Additional observations from a re-analysis of the deposited data

Results flagged for a closer look

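Gzmb differed in direction between gates of CD3-gated cells under the same contrast. Its ratio of JQ1 over control was 6.87 in CD8-gated cells, with 41 UMIs in 7 JQ1 and 2 UMIs in 2 control cells, and 0.484 in Il17a-gated cells, with 23 UMIs in 8 JQ1 and 34 UMIs in 11 control cells. Of the 41 JQ1 UMIs in CD8-gated cells 31 lay in 2 cells, which also held Gzmf, and the other 5 carriers held 1 to 3 each. Thinned to 1000 UMIs, 3 of 37 JQ1 and 0 of 21 control CD8-gated cells carried Gzmb, a difference of 8.11 points (-8.24 to 21.3). The difference between the gates was not tested, since each has 1 library per group.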

How the results depend on the processing

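No paired analysis was possible because each group has 1 library and no result comes from a test. The summed ratio of the 10 genes in CD3-gated cells, 1.18, was 1.37 over every deposited barcode and 1.35 with doublet calls kept, which held 76 Gzmf UMIs in JQ1, 1.08 with the median ratio set to 1, 1.11 without the top cell of each library, and 0.711 without the cells of at least 10 Gzma or Gzmf UMIs. That last alternative was chosen after seeing the data, by the values compared, and could only lower the ratio. The mean over all draws and the genes by role in T-like clusters were also added after seeing the data. In CD8-gated cells the ratio, 1.13, was 1.56 in T-like clusters, 0.915 without the top cell of each library and 0.420 without the Gzma or Gzmf cells. Without those cells Gzma had a ratio of 0.855, against 12.5, and 13.4 without the top cell of each library. The bound for Gzmf was 24.5 without the top cell. The difference in Gzmb carriers was -2.13 points without thinning, 2.42 in 1 draw and -0.04 as the mean over all draws. In T-like clusters Fcer1g (0.715), Tyrobp (0.812) and Ccl4 (0.743), among others, turned round, and Ccl3 had a ratio of 1.18. Of 9932 genes, 3081 were past 1.5-fold, 1987 in T-like clusters alone, 5464 with no minimum of UMIs and 1460 at 2-fold. The cause of these changes was not tested beyond the cells left out. The difference in the share with any member was below 0 in each of the 10 alternatives, from -9.26 to -2.20 points, but its interval held 0 in 6 of the 9 that gave one, every barcode (to 1.16), doublet calls kept (to 1.27), at least 2 CD3 UMIs (to 3.67), T-like clusters (to 1.53), no thinning (to 5.53) and 500 UMIs (to 3.06). Gzmc, Gzmk, Prf1 and Fasl had the fewest UMIs of the 10 genes in CD3-gated cells of both libraries together, and cells behind a gate are few.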
